A study of Mus musculus with 6 samples.

Results

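The 4 adult globin genes of the mouse, Hba-a1 and Hba-a2 for the alpha chain and Hbb-bs and Hbb-bt for the beta chain, were followed in liver tissue after ischemia reperfusion (I/R). They were chosen by name, as every gene symbol beginning with Hba- or Hbb- among the 3201 genes of the deposited table. That table lists only genes that the authors' own comparison of these same livers had picked out, at an absolute log2 fold change of at least 1 and an unadjusted p under 0.05. The levels of the globin genes between the groups are therefore a description of genes already selected on that contrast, and no test is given for them.

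RNA-seq was performed on 3 livers of Fgf18 f/f mice (f/f controls) and 3 livers of Fgf18△HSC mice (△HSC livers). All 6 livers had undergone hepatic I/R, for which portal branches to the left and middle lobes were clamped for 1 h and then released, with 6 h of reperfusion. Both genotypes carry the floxed Fgf18 allele on a C57BL/6 background, and the Fgf18△HSC mice also carry Cre driven by the GFAP promoter, which is used to reach hepatic stellate cells (HSCs) and is not confined to the liver. In the labels, the genotype field of the controls holds the I/R treatment, so their genotype, the times and the sex of the mice, male, were taken from the study's text. The age of the mice, the lobe taken and any flushing of blood from the organ are not given in the sources used here, unoperated livers were not analysed here, and neither was Fgf18 itself. The labels give each liver a number and nothing more about its animal, so errors and p-values measure the spread between these samples, which may in part be technical.

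Haemoglobin of adult mice is built from alpha chains and beta chains, each holding a haem group that binds oxygen. The genes of each chain lie side by side in a cluster with embryonic relatives, are switched on in erythroid precursors by factors that bind GATA, CACCC and CCAAT motifs, and give mRNA that reticulocytes and some red cells still carry after the nucleus is lost. In adult mice red cells are made in bone marrow and spleen, and the liver, the site of fetal erythropoiesis, clears free haemoglobin and haem and makes the iron hormone hepcidin. In bulk RNA from liver tissue, a different number of globin-bearing cells and a different amount of globin mRNA per cell cannot be told apart.

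In GENCODE M21 on GRCm38, Hba-a1 (ENSMUSG00000069919) lies at chr11:32283511-32284465 and Hba-a2 (ENSMUSG00000069917) at chr11:32296489-32297298, both on the plus strand. Hbb-bs (ENSMUSG00000052305) lies at chr7:103826534-103828096 and Hbb-bt (ENSMUSG00000073940) at chr7:103812524-103813996, both on the minus strand. Each gene has 3 exons. The promoters are shown because the 4 genes moved together in these livers. They are the 120 bases before the RefSeq start on GRCm38.p6, written 5′ to 3′ along the gene. These starts differ from the GENCODE ones, and every distance below counts from the RefSeq start. The stretches lie inside the GENCODE span of Hba-a1 and Hbb-bs and overlap that of Hba-a2 and Hbb-bt in part. Capitals mark runs of letters on either strand. These are CACCC and CCAAT, both known from globin promoters, GATAA, the core of the GATA motif, and ATATAA, of the TATA box type.
Hba-a1, chr11:32283552-32283671, plus strand: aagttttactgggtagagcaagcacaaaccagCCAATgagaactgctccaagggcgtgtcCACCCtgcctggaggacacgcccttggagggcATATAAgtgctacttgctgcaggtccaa
Hba-a2, chr11:32296372-32296491, plus strand: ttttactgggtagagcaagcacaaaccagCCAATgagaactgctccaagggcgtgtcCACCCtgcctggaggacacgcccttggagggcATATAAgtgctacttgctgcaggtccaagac
Hbb-bs, chr7:103827929-103828048, minus strand: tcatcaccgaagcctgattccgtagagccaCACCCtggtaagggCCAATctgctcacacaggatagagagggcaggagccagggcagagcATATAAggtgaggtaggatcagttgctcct
Hbb-bt, chr7:103813924-103814043, minus strand: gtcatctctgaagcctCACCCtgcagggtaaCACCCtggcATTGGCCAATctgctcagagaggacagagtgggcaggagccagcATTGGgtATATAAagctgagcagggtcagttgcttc

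The alpha promoters were nearly one sequence, with 297 of 300 bases around the start in an unbroken identical run. The longest identical run between the beta promoters was 14 bases. A run ends at any single difference, and the share of identical bases between the beta promoters was not measured. All 4 windows of 250 bases before the start held each of the 4 motifs. The TATA-type letters ATATAA began 28, 31, 30 and 29 bases before the start in Hba-a1, Hba-a2, Hbb-bs and Hbb-bt. The letters CCAAT on the gene's own strand began 88, 91, 76 and 75 bases before it in the same order. The nearest CACCC began 60 bases before the start in Hba-a1, 63 in Hba-a2, 90 in Hbb-bs and 89 in Hbb-bt, with further copies in Hba-a1, Hba-a2 and Hbb-bt. GATAA began further out, at 182, 185, 209 and 204 bases, outside the printed stretch. Of 32851 mouse promoter windows of the same 250 bases, 52.0% held CACCC, 33.9% held CCAAT, 22.6% held GATAA and 9.10% held ATATAA, on either strand. A match is a run of letters and not a measured binding site.

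The paralogs are shown at their only coding difference, because it bears on how far their levels can be separated. The alpha coding sequences are 429 bases long with the stop codon and the beta coding sequences 444 bases. Each pair was 99.8% identical, and the difference, in capitals, left the encoded chain of 142 residues for alpha and of 147 residues for beta unchanged. Positions count from the A of the start codon, and the changes are C381T from Hba-a1 to Hba-a2 and C417T from Hbb-bs to Hbb-bt.
Hba-a1, coding bases 352 to 410: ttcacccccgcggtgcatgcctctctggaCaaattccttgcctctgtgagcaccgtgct
Hba-a2, coding bases 352 to 410: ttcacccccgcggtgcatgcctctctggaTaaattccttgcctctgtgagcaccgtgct
Hbb-bs, coding bases 388 to 444: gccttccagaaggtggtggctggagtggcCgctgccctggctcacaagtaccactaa
Hbb-bt, coding bases 388 to 444: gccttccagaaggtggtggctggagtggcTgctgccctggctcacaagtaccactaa

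A read that lies wholly inside a stretch shared by both paralogs cannot be given to either by its sequence. Of all windows of 100 bases along the transcript, 56.5% in Hba-a1, 74.5% in Hba-a2, 62.6% in Hbb-bs and 54.8% in Hbb-bt were found letter for letter in the paralog. With windows of 150 bases the shares were 48.4%, 65.7%, 58.7% and 50.7%, so every gene kept stretches of its own as well. The read length and the authors' treatment of reads with several matches are not given in the sources used here. The split between the paralogs is uncertain to that extent. The summed levels are too, as shared reads may have been left out.

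**Figure D1:**
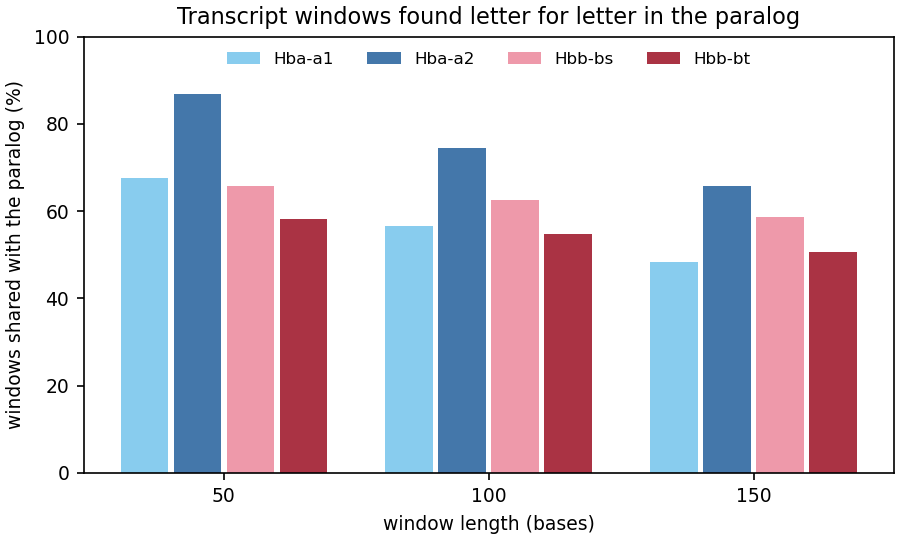
Percentage of windows of 50, 100 and 150 bases (x axis) along the transcript of each globin gene that occur letter for letter in its paralog (y axis), 1 bar for each gene. Shares fall from 58.3 to 86.9% at 50 bases to 48.4 to 65.7% at 150 bases, with Hba-a2 highest at each length.

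The values are read as TPM, a measure of transcript abundance that corrects for gene length and library size and so expresses each gene as a part of its library. A TPM value multiplied by the gene's joined exon length gave a whole number of reads in 92.2 to 92.6% of cases in each liver. This was judged to 0.02 of a read on values under 5000 reads. Any unit scaled by gene length and library size would give whole reads as well, so TPM is an assumption. The shares of all TPM given here rest on it. A read on 1 kb of exon was worth 0.0374 to 0.0555 TPM in the f/f controls and 0.0482 to 0.0655 TPM in the △HSC livers. The listed genes together held 7.14 to 7.93% of all TPM in the f/f controls and 3.89 to 3.99% in the △HSC livers, and library totals are unknown. Among 17 hepatocyte markers, Cyp2e1, Cyp3a11 and Pck1 are in the table, and all were above 100 TPM in every liver.

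Hba-a1, the first of the alpha genes along the chromosome, stood at 10.8, 13.5 and 19.8 TPM in f/f controls 1, 2 and 3, and at 71.1, 61.8 and 91.1 TPM in △HSC livers 1, 2 and 3. Those levels rest on 235, 245 and 290 reads against 1197, 767 and 1464 reads. All △HSC livers were above all f/f controls, and the lowest of the former was 3.12 times the highest of the latter. The means were 14.7 ± 4.62 and 74.7 ± 15.0 TPM (SD, n = 3 each), a 5.07-fold difference of means and a log2 difference of 2.36 on the log2(TPM + 0.1) scale.

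Hba-a2, which encodes the same alpha chain, was measured at 9.80, 11.5 and 13.9 TPM in the f/f controls against 41.9, 41.4 and 71.6 TPM in the △HSC livers. The reads behind these levels numbered 175, 171 and 167 in the former and 580, 422 and 945 in the latter. △HSC liver 3 stood well above its group here, with livers 1 and 2 close together, but again the groups did not overlap, the nearest livers being 2.98-fold apart. Mean levels were 11.7 ± 2.06 and 51.6 ± 17.3 TPM (SD, n = 3 each), 4.40-fold apart, with a log2 difference of 2.09.

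Hbb-bs, an adult beta gene of the C57BL/6 haplotype, gave the highest level of the 4 in every liver, at 45.4, 59.1 and 74.5 TPM in the f/f control group and 299.8, 265.6 and 340.4 TPM in the △HSC group. It also had the most reads, 934, 1012 and 1030 against 4776, 3117 and 5173. The groups were separated by a 3.57-fold gap between the nearest livers, and the △HSC livers lay closer to each other than those of any other globin gene, with a coefficient of variation of 12.4%. The group means were 59.7 ± 14.5 and 302 ± 37.4 TPM (SD, n = 3 each), which is 5.06-fold, or 2.36 on the log2 scale.

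Hbb-bt, which encodes the same beta chain, was the lowest of the 4 in every liver. Its level was 4.84, 6.96 and 7.90 TPM in the f/f controls, from 91, 109 and 100 reads, and 29.6, 27.2 and 35.6 TPM in the △HSC livers, from 432, 292 and 495 reads. No liver of either group reached the other, and the nearest were 3.44-fold apart. Means of 6.56 ± 1.57 and 30.8 ± 4.32 TPM (SD, n = 3 each) differed 4.69-fold, a log2 difference of 2.23.

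**Figure D2:**
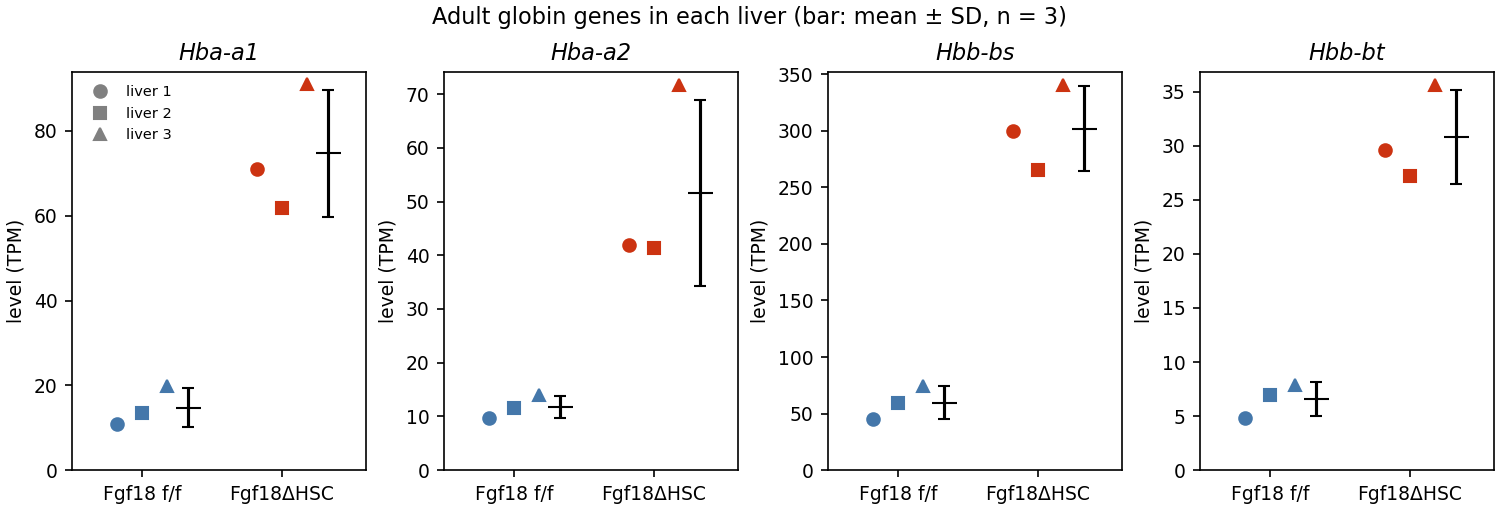
Level in TPM (y axis, from 0, own scale in each panel) of each globin gene in the 3 Fgf18 f/f and 3 △HSC livers (x axis), with marker shape for the liver number and the black bar for mean ± SD. In each panel the △HSC livers lie above the f/f controls without overlap, from a mean of 6.56 to 30.8 TPM for Hbb-bt and from 59.7 to 302 TPM for Hbb-bs.

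Summed over the 4 genes, the globin level was 70.9, 91.2 and 116 TPM in the f/f controls and 442, 396 and 539 TPM in the △HSC livers. The mean was 92.7 ± 22.6 against 459 ± 72.8 TPM (SD, n = 3 each), or 4.95-fold. If the values are TPM, the counted globin mRNA was a small part of the liver's RNA in both groups. It made up 0.00709 to 0.0116% of all TPM in the f/f controls and 0.0396 to 0.0539% in the △HSC livers. As a share of the TPM of the listed genes alone, it ran from 0.0987 to 0.146% and from 0.997 to 1.35%.

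Within every liver the order was Hbb-bs, Hba-a1, Hba-a2 and Hbb-bt from high to low. Hbb-bs made up 63.2 to 67.8% of the summed globin TPM over the 6 livers. Hba-a1 was above Hba-a2 in 6 of 6 livers, yet in each group their ranges across livers overlapped, so this neighbouring pair was separated only within livers. Hba-a1 also has more sequence of its own, as 339 windows of 100 bases were shared of 600 in Hba-a1 and of 455 in Hba-a2. The order of the alpha pair therefore depends on how shared reads were handled, which is unknown. Hba-a2 was above Hbb-bt with no overlap in either group, and so was Hbb-bs above Hba-a1.

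The livers also kept their order from gene to gene. For each of the 4 genes number 1 was lowest and number 3 highest among the f/f controls, and among the △HSC livers number 2 was lowest and number 3 highest. In the f/f controls the summed globin reads were near each other, at 1435, 1537 and 1587, while a read on 1 kb was worth 0.0374, 0.0449 and 0.0555 TPM, so the order of the TPM levels was also the order of that worth. This did not hold in the △HSC livers, where that worth was 0.0482, 0.0655 and 0.0505 TPM and liver 2, the lowest in globin level, had the highest. The △HSC livers had 6985, 4598 and 8077 globin reads, and their lowest, number 2, was the one with the fewest reads on listed genes, 1574331. The part of depth in the order of the livers was not tested.

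Ratios between globin genes within a liver do not depend on how the libraries were scaled, and the genes were not selected on them. They may depend on how reads shared by paralogs were counted. The ratio of beta to alpha, the summed Hbb level over the summed Hba level, was 2.44, 2.64 and 2.44 in the f/f controls and 2.92, 2.84 and 2.31 in the △HSC livers. △HSC livers 1 and 2 were above all of the f/f controls and liver 3 was below them. The means, 2.51 ± 0.115 and 2.69 ± 0.329 (SD), differed by 0.09 on the log2 scale, with p = 0.4 in the two-sided exact permutation test of 3 against 3 livers, which cannot go below 0.1.

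The ratio of Hba-a1 to Hba-a2 was 1.10, 1.18 and 1.43 against 1.70, 1.49 and 1.27. Here too the groups overlapped through liver 3 of each. The means were 1.24 ± 0.169 and 1.49 ± 0.211 (SD), a log2 difference of 0.27 with p = 0.2 in the exact permutation test. The ratio of Hbb-bs to Hbb-bt was 9.40, 8.50 and 9.43 in the f/f controls and 10.1, 9.77 and 9.57 in the △HSC livers. It was the only one of these ratios without overlap, with means of 9.11 ± 0.527 and 9.82 ± 0.280 (SD), a log2 difference of 0.11 and p = 0.1, the smallest the exact permutation test allows. Adjusted over the 3 ratios by Benjamini-Hochberg, the exact permutation p-values were 0.4 for beta to alpha and 0.3 for the others. None of the ratios can be called different, and with 3 livers a group the test could not have called any.

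**Figure D3:**
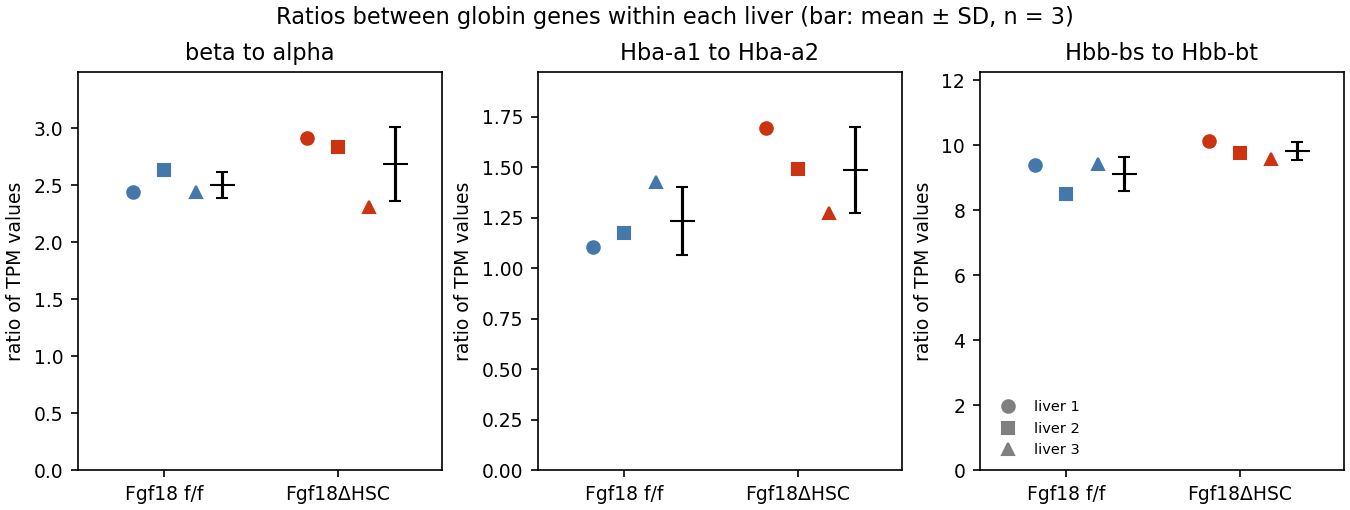
Ratio of TPM values (y axis, from 0) within each of the 6 livers for beta to alpha, Hba-a1 to Hba-a2 and Hbb-bs to Hbb-bt, by group (x axis), with marker shape for the liver number and the black bar for mean ± SD. The ratios overlap between groups except Hbb-bs to Hbb-bt, at 8.50 to 9.43 against 9.57 to 10.1.

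Hba-a2 held 42.7% (95% Wilson interval 38.0 to 47.5%), 41.1% (36.5 to 45.9%) and 36.5% (32.3 to 41.1%) of the alpha reads in f/f livers 1, 2 and 3. In △HSC livers 1, 2 and 3 it held 32.6% (30.5 to 34.9%), 35.5% (32.8 to 38.3%) and 39.2% (37.3 to 41.2%). The interval of △HSC liver 1 was clear of those of f/f livers 1 and 2, and that of △HSC liver 3 overlapped all of the f/f controls. Hbb-bt held 8.85 to 9.72% of the beta reads in the f/f controls and 8.29 to 8.73% in the △HSC livers, and every interval overlapped every other. The intervals cover counting error only, and the share counts reads as the authors divided them between the paralogs.

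Set against the rest of the table, the globin genes were among the more abundant genes and among those with larger differences. By mean level over the 6 livers Hbb-bs ranked 63, Hba-a1 186, Hba-a2 242 and Hbb-bt 326 of 3201, with means of 181, 44.7, 31.7 and 18.7 TPM. By log2 difference, highest first, they ranked 87, 86, 142 and 109. Of the 467 genes with a mean over 10 TPM, the median log2 difference was -1.21, and 19 had one above 2, among them the 4 globin genes. Of the 106 genes with a mean over 100 TPM, 14 were higher in the △HSC livers, Hbb-bs among them. These ranks describe a list that was selected on the same contrast.

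**Figure D4:**
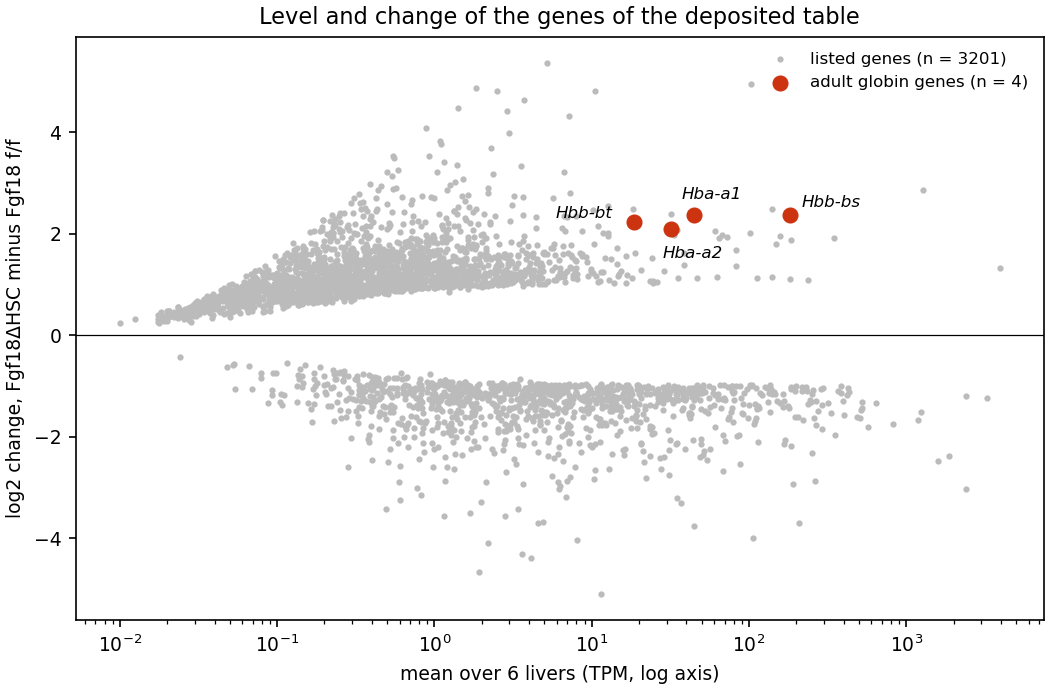
Log2 difference, Fgf18△HSC minus Fgf18 f/f, on the log2(TPM + 0.1) scale (y axis) against mean level over 6 livers in TPM (x axis, log scale) for the 3201 listed genes in grey and the 4 globin genes in red. The globin genes lie at 18.7 to 181 TPM and 2.09 to 2.36, where few other genes lie, while most genes over 10 TPM lie below 0.

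A fit by limma on log2(TPM + 0.1) across all 3201 genes served as the background. Calls needed an adjusted p (Benjamini-Hochberg) below 0.05 together with a log2 difference beyond 1 in either direction. By this rule 71.7% of the table was called, 41.6% as higher and 30.0% as lower in the △HSC livers, and in 96.3% the groups did not overlap. The 4 globin genes were part of the fit, and their groups did not overlap. The selection of the table leads one to find this, and nothing is read from it. Every other gene named below is in the table through the same selection on these 6 livers, so a call of it largely restates that selection, and the counts are read against the shares of the whole table. The median log2 difference of all listed genes was 0.88. When the livers were rescaled so that the typical listed gene had the same level in each, the log2 differences shifted by a median of -0.88. The globin differences became 1.33 for Hba-a1, 1.07 for Hba-a2, 1.33 for Hbb-bs and 1.21 for Hbb-bt, all still above 0.

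Of 14 other globin family genes looked up, embryonic and pseudogene members of both clusters together with myoglobin, neuroglobin, cytoglobin and androglobin, Adgb alone is in the table, and the others were not analysed here. Adgb, androglobin, a large protein with a globin domain known from testis and ciliated cells, was at 0.223, 0.268 and 0.296 TPM in the f/f controls and 0.0311, 0.127 and 0.0979 TPM in the △HSC livers. It was lower, the opposite direction to the adult globins, with a log2 difference of -1.0 ± 0.24 (SE). The call sits on the fold limit and was lost without f/f liver 2 (-0.99), f/f liver 3 (-0.93) or △HSC liver 1 (-0.77). With a pseudocount of 1 Adgb was at -0.22 and not called.

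Haem, the partner of the globin chains, is made by a mitochondrial and cytosolic pathway. Of its 19 listed genes 2 are in the table, and both were called lower in the △HSC livers (1 with a pseudocount of 1), beside 30.0% of the table. Alas1 encodes the first and rate-limiting enzyme in liver and most tissues, in contrast to its erythroid relative. Its level was 118.9, 118.4 and 118.2 TPM in the f/f controls and 18.8, 18.9 and 17.7 TPM in the △HSC livers. The livers of each group were nearly level with each other, and Alas1 fell by 2.68 ± 0.09 (SE) on the log2 scale. Abcb10, a mitochondrial transporter needed for haem formation in erythroid cells, was at 5.35 ± 0.940 against 2.56 ± 0.694 TPM (SD, n = 3 each) and fell by 1.05 on the log2 scale. Its call was lost without f/f liver 1 (-0.98), f/f liver 2 (-0.97) or △HSC liver 2 (-0.85).

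Of 36 genes of the red cell membrane, cytosol and late erythroid maturation, 7 are in the table, 5 higher and 2 lower, with a median log2 difference of 0.64 beside 0.88 for all listed genes. By limma with Benjamini-Hochberg adjustment 3 were called higher and 1 lower, beside 41.6% and 30.0% of the table. With a pseudocount of 1, 1 was called higher and 1 lower, beside 266 and 566 of all 3201 genes. Aqp1, the water channel of red cells and also of endothelium and bile duct cells, rose from 6.68, 8.18 and 9.74 TPM to 19.9, 33.8 and 20.7 TPM, a log2 difference of 1.56. Its highest liver was △HSC liver 2, the one that was lowest for every globin gene. Fam46c, a poly(A) polymerase of late erythroid and plasma cells, rose from a mean of 0.677 ± 0.132 to 1.84 ± 0.161 TPM (SD, n = 3 each).

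Car1, the carbonic anhydrase of red cells and gut, went the other way. It fell from 4.07, 3.81 and 3.78 TPM to 1.12, 1.26 and 1.26 TPM, by 1.61 on the log2 scale. The membrane skeleton genes were not called. Epb41, encoding protein 4.1 of many cell types, was at 15.4 ± 1.93 against 7.65 ± 0.771 TPM (SD, n = 3 each), a log2 difference of -0.99, which passed the limit without f/f liver 3 (-1.10) or △HSC liver 2 (-1.07). Epb42, protein 4.2, a red cell membrane protein, had 0 reads in each f/f liver and 3, 4 and 7 reads in the △HSC livers. Dmtn, dematin, had 3 to 8 against 7 to 25 reads. After rescaling of the livers none of the red cell genes was called higher and 2 were called lower, beside 281 and 1115 of all 3201 genes.

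Of 17 regulators of erythroid transcription, 5 are in the table, and by limma with Benjamini-Hochberg adjustment 1 was called higher and 1 lower, beside 41.6% and 30.0% of the table. With a pseudocount of 1, 0 were called, beside 266 higher and 566 lower of all 3201 genes. With a pseudocount of 0.01, 4 were called higher and 1 lower, beside 1995 and 1048. Klf1, the erythroid factor that binds the CACCC letters of the beta globin promoter, fell from 0.977, 0.851 and 1.27 TPM to 0.536, 0.599 and 0.264 TPM, on 29 to 40 reads against 8 to 17. Its log2 difference of -1.04 ± 0.29 (SE) was past the limit in all 6 livers together. It missed the limit without f/f liver 3 (-0.89), without △HSC liver 3 (-0.75) or with a pseudocount of 1 (-0.47). E2f2, a cell cycle factor of maturing erythroblasts, rose from 0.107 ± 0.0290 to 0.375 ± 0.0387 TPM (SD, n = 3 each) with a log2 difference of 1.20. It was not called after rescaling (0.56) or with a pseudocount of 1 (0.31).

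Tal1, Nfe2 and Lyl1, factors shared by erythroid, megakaryocyte and other blood lineages and, for Tal1 and Lyl1, endothelium, had log2 differences of 0.79, 0.95 and 1.0 and were not called. Their levels were 0.110, 0.177 and 0.0324 TPM in the f/f controls and 0.266, 0.437 and 0.181 TPM in the △HSC livers as group means, with Lyl1 resting on 1 to 11 reads. The limit of 1 was passed without △HSC liver 2 by both Nfe2 (1.07) and Lyl1 (1.30), without f/f liver 3 by Nfe2 (1.02), and by Lyl1 also without f/f liver 1 (1.05) or △HSC liver 1 (1.01). Over haem synthesis, red cell and regulator genes together, 14 of 72 are in the table, of which 4 were called higher and 4 lower, beside 41.6% and 30.0% of the table, with a median log2 difference of 0.72 beside 0.88. None of these 14 genes stood above 40 TPM in the △HSC livers, where the 4 globin genes summed to 396 TPM or more. In the f/f controls Alas1, alone of them, was above the summed globin level, at 118.9, 118.4 and 118.2 TPM against 70.9, 91.2 and 116 TPM.

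Hepcidin and the plasma proteins that bind free haemoglobin and haem were lower in the △HSC livers. Of 23 genes of iron handling and erythropoietin signalling 5 are in the table, with 3 called lower and 0 called higher by limma, beside 30.0% and 41.6% of the table (the other 2 passed the adjusted p and were short of the fold limit). Hamp, hepcidin, the hormone that closes iron export, was at 2812, 2329 and 2995 TPM in the f/f controls and at 359, 562 and 551 TPM in the △HSC livers, and fell by 2.49 on the log2 scale. Hamp2, its mouse paralog, fell by 2.82, from 38.9 ± 3.67 to 5.43 ± 0.467 TPM (SD, n = 3 each). Slc40a1, ferroportin, the iron exporter that hepcidin acts on, fell by 1.16, from 7.47 ± 0.669 to 3.30 ± 0.295 TPM. With a pseudocount of 1 Slc40a1 was at -0.98 and not called, and 2 genes of this list were called lower. Bmp6, the endothelial signal that induces hepcidin, and Heph, hephaestin, a ferroxidase, were not called, at 0.555 against 1.20 and 0.0210 against 0.0908 TPM. Their log2 differences were 0.95 and 0.67, and Bmp6 passed the limit without f/f liver 3 (1.04), △HSC liver 1 (1.04) or △HSC liver 2 (1.11).

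All 4 haemoglobin clearance genes in the table, of 15 listed, were called lower, beside 30.0% of the table, and 4 were called lower after rescaling, beside 1115 of 3201. Hp, haptoglobin, which binds free haemoglobin in plasma, was at 3413, 3318 and 3221 TPM in the f/f controls and 1333, 1715 and 1310 TPM in the △HSC livers. Hpx, hemopexin, which binds free haem, was at 4789, 4329 and 4575 TPM against 1814, 2360 and 1657 TPM. These 2 transcripts were far above the globins in every liver and fell by 1.20 and 1.25 on the log2 scale. Blvrb, a biliverdin reductase, fell by 1.31, and Spic, the factor of red pulp and iron-recycling macrophages, fell by 2.25, from 2.89 ± 0.0467 to 0.544 ± 0.167 TPM (SD, n = 3 each).

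**Figure D5:**
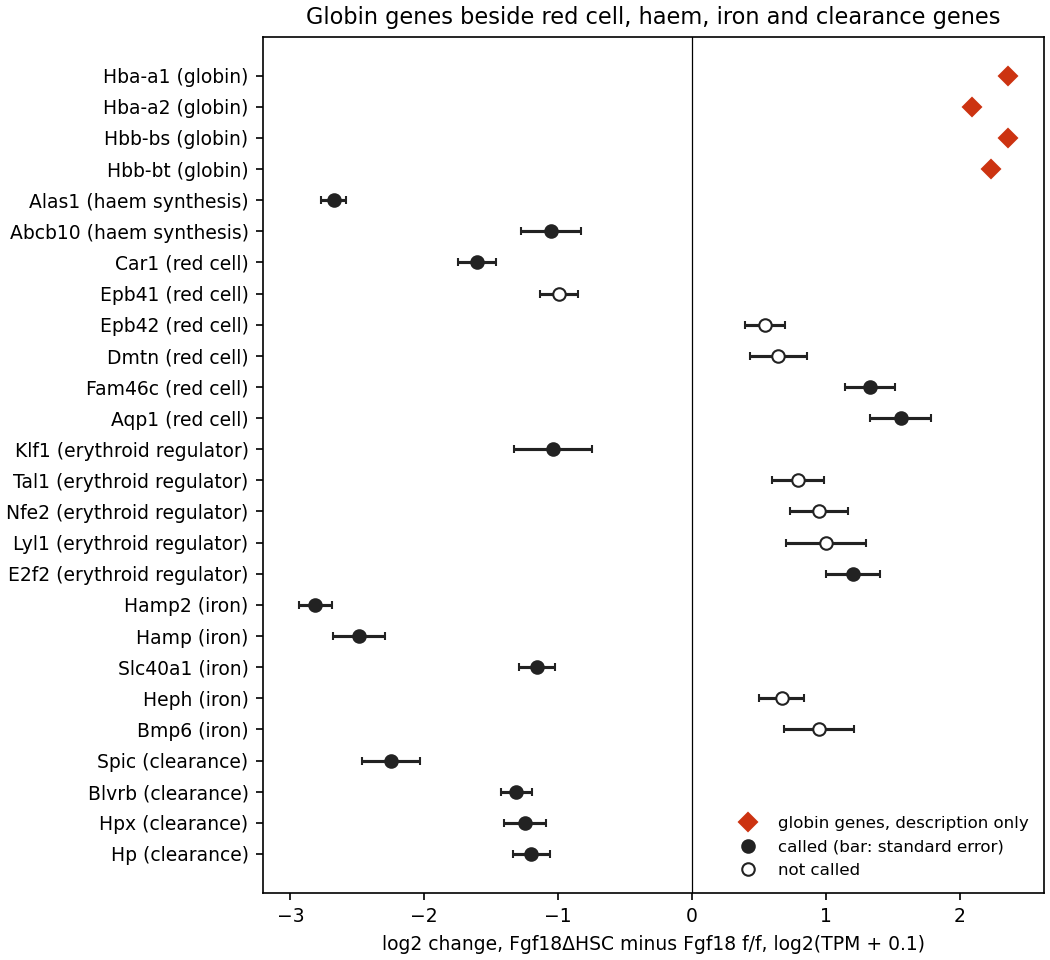
Log2 difference, Fgf18△HSC minus Fgf18 f/f, on the log2(TPM + 0.1) scale (x axis) for the 4 globin genes (red, description only) and the genes named here of haem synthesis, red cells, erythroid regulation, iron and clearance (y axis), with bars for the standard error of the limma fit and filled circles for called genes. The globins lie at 2.09 to 2.36, while Alas1, Hamp, Hamp2, Hp and Hpx lie between -2.82 and -1.20.

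Markers of other blood and liver cells are in the table only where they passed the same selection, so that they differ between these livers was set beforehand. Of 16 platelet markers 4 are in the table, with a summed level of 2.85 to 3.23 TPM in the f/f controls and 7.38 to 8.57 TPM in the △HSC livers. Ppbp, a platelet chemokine (log2 difference 1.76), and Itgb3, a platelet and endothelial integrin (1.77), rose, F2rl2, a thrombin receptor family member, fell by 1.28, and Nrgn, neurogranin, was not called (0.95, with 1.15 and a call without △HSC liver 3, and -0.01 after rescaling). Thus 2 were called higher and 1 lower, beside 41.6% and 30.0% of the table. With a pseudocount of 1 F2rl2 was at -0.38 and not called. Of 15 B cell and plasma cell markers 3 are in the table, at a sum of 6.06 to 9.70 TPM against 25.9 to 48.2 TPM. Ighm, Igkc and Jchain, which encode immunoglobulin chains and their joining chain, rose by 1.57, 2.55 and 2.12 on the log2 scale. All 3 were called higher, beside 41.6% of the table. With a pseudocount of 1 Jchain was at 0.70 and not called.

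Of 14 macrophage and monocyte markers 6 are in the table, at a sum of 10.6 to 13.5 against 28.7 to 41.5 TPM. The complement genes C1qa and C1qc, the lysosomal Cd68, the monocyte chemokine receptor Ccr2 and the integrin Itgam rose by 1.32, 1.17, 1.80, 1.90 and 1.55 on the log2 scale. These 5 were called higher, beside 41.6% of the table. Adgre1, the F4/80 antigen, was not called (0.82, with 1.09 and a call without △HSC liver 1, and -0.03 after rescaling). C1qc missed the limit without f/f liver 2 (0.95). With a pseudocount of 1 C1qc (0.95), Ccr2 (0.83) and Itgam (0.55) were not called. Of 17 T and NK cell markers Gzma and Gzmb, the granzymes, are in the table and were called lower (0 with a pseudocount of 1), beside 30.0% of the table, at a sum of 2.40 to 3.58 against 0.677 to 1.20 TPM. Gzma was not called without f/f liver 3 (limma Benjamini-Hochberg adjusted p of 0.0508) or △HSC liver 2 (a log2 difference of -0.87).

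Of 19 neutrophil markers 8 are in the table, 4 called higher and 4 lower, beside 41.6% and 30.0% of the table. The granule genes Ngp, Camp and Ltf, made in marrow precursors, fell, with log2 differences of -3.68, -3.0 and -2.57, and Chil3, a chitinase-like protein of myeloid cells, rose by 2.37. Mmp8, a granule collagenase, and the receptors Csf3r and Cxcr2 were also called higher, at 2.05, 1.10 and 1.27. Camp rested on 1, 1 and 2 reads in △HSC livers 1, 2 and 3. With a pseudocount of 1 Camp was at -1.16, and Ltf (-0.93) and Csf3r (0.98) were not called. Without △HSC liver 3 the receptors were at 0.75 and 0.86 and not called, and without f/f liver 3 Csf3r was at 0.95 and not called. After rescaling 2 neutrophil markers were called higher and 4 lower, with Csf3r at 0.08 and Cxcr2 at 0.27. Their summed level, 422 to 518 against 143 to 187 TPM, is mostly Lcn2, lipocalin 2, which injured hepatocytes also make. The hepatocyte markers Cyp2e1, Cyp3a11 and Pck1 fell by 1.67, 1.47 and 1.64, at a sum of 2830 to 3057 against 850 to 1147 TPM. All 3 were called lower, beside 30.0% of the table. Over the markers in the table, the summed platelet, B cell and macrophage levels were thus higher in the △HSC livers, as the globin levels were. The summed granzyme and hepatocyte levels were lower, while single platelet and neutrophil markers went both ways. These sums hold only markers selected on the same contrast and leave out the others. A difference in them was thus set beforehand, and nothing about cell numbers is read from it. After rescaling, 0 platelet, 2 B cell and 1 macrophage markers were called higher, beside 281 of all 3201 genes. The part of these cells in the globin levels was not tested. As TPM is a share of the library, a lower level of abundant hepatocyte transcripts and a higher level of the rest cannot be told apart.

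Across the 6 livers, each globin gene followed the others closely. Pearson r of log2(TPM + 0.1) between members ran from 0.985 for Hba-a2 with Hbb-bs to 0.999 for Hbb-bs with Hbb-bt. The gap between the groups enters these values. With the group means taken out, r of the remaining deviations was 0.979 for Hba-a1 with Hbb-bs, 0.974 for Hbb-bs with Hbb-bt and 0.779 for Hba-a2 with Hbb-bs. The points share library and depth, and paralogs may share reads, so these values are a description over 6 livers.

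Of 1420 genes whose mean reached 1 TPM, 19 had r above 0.99 with the mean log2 level of the 4 globin genes over the 6 livers. The 5 closest were Rhoj, a small GTPase of endothelial cells (r = 0.998), Hexim1, an inhibitor of the transcription elongation factor P-TEFb (0.997), BC017643 (0.997), Cnn2, the actin-binding calponin 2 (0.996), and Calcrl, the receptor of adrenomedullin and calcitonin gene-related peptide (0.996). With the group means removed, their r was 0.968, 0.934, 0.935, 0.962 and 0.925. These 5 genes were picked by r over the same livers, so high values follow largely from that choice, and nothing is read from them. Rhoj, for example, was at 0.605, 0.651 and 0.779 TPM in the f/f controls and 1.47, 1.37 and 1.77 TPM in the △HSC livers, the same order of livers as every globin gene. Among the 5 only Calcrl departed from that order, with △HSC liver 1 at 1.66 TPM below liver 2 at 1.73 TPM. The log2 differences of the 5 genes, 1.07 to 1.59, were smaller than those of the globin genes.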

How the data were processed

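Total RNA of 6 mouse livers was isolated with Trizol by the authors, and stranded mRNA libraries were trimmed (cutadapt 2.5, per the submitters' processing notes), aligned to GRCm38 with HISAT2 2.1.0 and counted with featureCounts 1.6.3. The authors deposited 1 table of TPM values for 3201 genes. The unit is not written in it and was taken as TPM. The whole reads that value and exon length give show scaling by gene length and library size. TPM shares this with other units, so the whole reads cannot tell them apart. Its further columns hold the authors' DESeq2 fold change, p-values and direction, and were not used beyond learning how the table had been filtered.

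Gene models came from GENCODE M21 (3196 of 3201 genes matched) and promoters from RefSeq on GRCm38.p6, which held all 4 globin genes. Reads were recovered as TPM times joined exon length over the worth of a read, and limit the precision of each level. Livers were grouped by their labels. The fit used limma 3.58.1 in R 4.3.3 (lmFit, then eBayes allowing a trend of variance with level) and took log2(TPM + 0.1) of every gene without a block, Benjamini-Hochberg adjustment over all 3201 genes, and calls at an adjusted p under 0.05 and an absolute log2 difference over 1. Ratios were compared by two-sided exact permutation tests in Python 3.11.15 with scipy 1.17.1, and read shares have 95% Wilson intervals. Genes named were the globin genes, every listed member of a gene list where at most 6 were in the table and otherwise the 4 with the largest log2 difference, and the 5 genes closest in pattern. Epb41, Epb42, Dmtn, Lcn2, Mmp8, Csf3r and Cxcr2 were named beyond that rule after their values were seen. A red cell gene that the rule picks is counted but not reported here. The globin genes and the lists were chosen with earlier results of these data known. Alternatives were other pseudocounts, rescaled livers, a level filter, no trend, no fold limit, a replicate block and each liver left out in turn.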

Additional observations from a re-analysis of the deposited data

How the results depend on the processing

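The globin genes stayed higher in the Fgf18△HSC livers under every alternative run. Their log2 differences with a liver left out ranged from 2.16 to 2.60 for Hba-a1, 1.83 to 2.23 for Hba-a2, 2.18 to 2.53 for Hbb-bs and 2.03 to 2.38 for Hbb-bt. Rescaling the livers gave 1.33, 1.07, 1.33 and 1.21. The 3 ratios kept their direction throughout, and leaving out a liver gave log2 differences of 0.03 to 0.20 for beta to alpha, 0.17 to 0.37 for Hba-a1 to Hba-a2 and 0.06 to 0.14 for Hbb-bs to Hbb-bt, which was 0.26 with a pseudocount of 1. The count of genes called, 2294, became 832 with a pseudocount of 1 (266 higher, 566 lower), 1396 with rescaled livers (281 higher, 1115 lower) and 1309 among the 1424 genes whose mean reached 1 TPM (522 higher, 787 lower), and ran from 2120 to 2330 with a liver left out. The 8 called erythroid genes became 3 with a pseudocount of 1, 14 with a pseudocount of 0.01 or no fold limit (settings that called 3043 and 3113 of all 3201 genes), and 5 with rescaled livers (0 higher) or with the genes whose mean reached 1 TPM. Of the 5 genes closest in pattern, 3 were shared with a pseudocount of 1. Of the genes of the lists, 16 lost their call with a pseudocount of 1 and 13 with rescaled livers, all in the same direction as before. Rescaling turned Nrgn (-0.00843) and Adgre1 (-0.02774). The pseudocount and rescaling act mostly on low genes and on the centre of the table by construction. The replicate numbers are shared by both groups but mark different animals, and same-numbered livers deviated together little (r = 0.0574, 0.00597 and 0.0307), and not every liver correlated best with its own number. A fit with a replicate block called 2300 genes and changed no call of a gene of the lists, and the ratio tests with the replicate block cannot go below an exact p of 0.25. What limits the globin values is the prior selection of the table on the same contrast, 3 livers a group, and an assumed unit. Unknown library totals and the unknown handling of reads shared by paralogs limit them too.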
